A study of Mus musculus with 6 samples.

Results

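The metallothioneins and the genes around cellular zinc were followed in 3T3 cells with and without induced human PARG (hPARG), the enzyme that removes poly(ADP-ribose) from proteins. The group held 8 of the 41819 genes in the deposited table and was chosen by gene name (Mt1, Mt2, Mt3, Mtf1, Slc30a1, Slc39a8, Slc39a10 and Slc39a14), with the measured differences between hPARG and control dishes in these same data already known, so all differences below are descriptions and not independent evidence. 3T3 cells are a line of albino Swiss mouse embryo fibroblasts, although the sample labels give their type as malignant. All 6 dishes came from 1 clone that carried the lentiviral TetOne cassette for hPARG and was kept under puromycin. The hPARG dishes (n = 3) were given 500 ng/ml doxycycline for 72 h and the control dishes (n = 3) the same medium without it, so the antibiotic and the hPARG it induces cannot be told apart. A culture is called a dish here as in the methods, though the labels speak of wells. The dishes share 1 clone, and p-values measure only the spread between them. The hPARG transcript is not among the mouse genes of the table and was not checked here.

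Metallothioneins are small cysteine-rich proteins that bind zinc and copper, and Mt1 and Mt2 are made in most tissues while Mt3 is known mainly from brain. MTF1 is the zinc-sensing transcription factor that binds metal response elements in DNA and drives Mt1, Mt2 and Slc30a1, and it is known to hold down Slc39a10 when zinc is high. Slc30a1 encodes ZnT1, which moves zinc out of the cell, whereas Slc39a8, Slc39a10 and Slc39a14 encode the importers ZIP8, ZIP10 and ZIP14, of which ZIP8 and ZIP14 also carry manganese and iron.

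Promoter sequences are shown for the 3 classical MTF1 targets, Mt2, Mt1 and Slc30a1, which had the widest fitted differences of the tested genes of the group, lower in hPARG dishes for Mt2 and Slc30a1 and higher for Mt1, although none of them was called. The windows are the 250 bases before the RefSeq start of each gene on GRCm38.p6, plus strand, at chr8:94172368-94172617 for Mt2, chr8:94178839-94179088 for Mt1 and chr1:191906531-191906780 for Slc30a1. Capitals mark the 7-base core of the metal response element, searched as TGCACNC and TGCGCNC on both strands.
Mt2: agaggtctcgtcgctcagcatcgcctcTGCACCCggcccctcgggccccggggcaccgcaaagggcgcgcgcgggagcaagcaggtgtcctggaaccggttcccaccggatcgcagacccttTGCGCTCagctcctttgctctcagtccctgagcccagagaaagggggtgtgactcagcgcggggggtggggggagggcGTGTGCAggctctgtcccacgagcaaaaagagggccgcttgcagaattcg
Mt1: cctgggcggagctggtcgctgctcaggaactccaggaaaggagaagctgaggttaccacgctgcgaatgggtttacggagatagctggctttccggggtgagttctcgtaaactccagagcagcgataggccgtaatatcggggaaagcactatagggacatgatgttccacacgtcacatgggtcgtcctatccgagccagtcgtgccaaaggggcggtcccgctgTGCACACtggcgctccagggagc
Slc30a1: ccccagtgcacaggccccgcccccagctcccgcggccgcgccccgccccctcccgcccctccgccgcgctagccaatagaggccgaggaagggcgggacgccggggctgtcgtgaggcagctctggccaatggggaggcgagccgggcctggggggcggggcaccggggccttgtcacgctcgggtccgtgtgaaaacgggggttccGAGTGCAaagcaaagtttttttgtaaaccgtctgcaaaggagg

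The Mt2 window held 3 cores, which begin 223, 128 and 50 bases before its start, and 1.26% of all 32851 RefSeq windows held as many. The Mt1 and Slc30a1 windows held 1 core each, which begin 23 and 43 bases before the start, and 21.4% of all windows held at least 1. Transcripts of Mt1 are annotated with starts at 94179082, 94179211 and 94179241, so that the stretch used as upstream depends on the start taken. The 159 bases from the first of these starts to the base before the last held 4 further cores. Of the 135466 annotated transcripts of at least this length, 0.0472% reached or passed this number in their first 159 bases. These are transcribed bases, and transcripts can share a start, so this share cannot be set beside those of the upstream windows. For Mt2 the annotation starts at 94172664, and the 46 bases between the RefSeq start and this one held 1 core, against 5.28% of all windows with at least 1 there. Windows were given for 7 of the 8 genes. No core was found in the windows of Mt3, Mtf1 and Slc39a10, and Slc39a8 had 1 in the second of its 2 windows. A match is a description of these letters only and not a site where MTF1 was measured.

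Total counts were between 21619908 and 25263818 per dish. The fibroblast label was checked on 8 markers, which were all tested, with summed values of 6116 to 7848 CPM (counts scaled to library size with TMM factors) in control and 7084 to 8956 in hPARG dishes, whereas 4 epithelial markers summed to at most 0.518, 5 immune markers to at most 1.13 (3 of them at 0 throughout) and 3 endothelial markers to at most 0.707. Of the fibroblast markers 3 were higher in all hPARG dishes, against 3.61% of all tested genes, and 1 was lower in all, against 6.00%. An unadjusted p under 0.05 in edgeR's quasi-likelihood test was found for 4 of the 8, against 3.95% of all tested genes, none was called, and the part of this in the results below was not tested. Dish 2 of both groups stood apart by exon length, added over all annotated exons of a gene. The 1152 tested genes with the shortest exons had a median of 1364.5 bases, and the 1151 with the longest 12640 bases. Against dishes 1 and 3, the median difference in log2 CPM of the shortest was -0.35 in control and -0.37 in hPARG. That of the longest was 0.37 and 0.36.

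Levels between genes are given as the deposited RPKM, which divides by gene length. In control dishes Mt2 was the most abundant of the group at 30.8 ± 7.56 RPKM (SD, n = 3), followed by Slc39a10 at 6.40 ± 0.742, Slc39a8 at 2.97 ± 0.153 and Mtf1 at 2.30 ± 0.490. Slc30a1 (1.87 ± 0.146), Slc39a14 (1.69 ± 0.123), Mt1 (0.213 ± 0.0205) and Mt3 (0.0263 ± 0.0456) followed. Over the 6 dishes Mt2 lay at the 76.5th percentile of mean RPKM among tested genes and Mt1 at the 6.85th. Of the pair of metallothioneins that most cells make, these fibroblasts thus carried almost only Mt2. The annotated exons of Mt1 cover its whole span of 1246 bases, and its RPKM and percentile depend on the length taken. By counts alone there were 54.5 to 75.7 of Mt2 per Mt1 count in control and 10.6 to 22.4 in hPARG dishes. The control ranges of Slc39a8 and Mtf1, of Mtf1 and Slc30a1, and of Slc30a1 and Slc39a14 overlapped between dishes. Within each of the 6 dishes, however, Slc39a8 was above Mtf1 and Mtf1 above Slc30a1 by RPKM. Slc30a1 was above Slc39a14 in every control dish and below it in every hPARG dish. The places of Mtf1, Slc30a1 and Slc39a8, and that of Slc39a14 in hPARG dishes, depend on the gene length that is divided by. By CPM per kb of exon, Mtf1 ranked 3, Slc30a1 4, Slc39a8 5 and Slc39a14 6 over the 6 dishes. Slc30a1 was then above Slc39a14 in both groups. In hPARG dishes Mt2 was still first at 15.9 ± 2.78 RPKM and Slc39a10 next at 7.40 ± 0.634. The lowest places were again held by Mt1 at 0.523 ± 0.166 RPKM and Mt3 at 0.0623 ± 0.0202.

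**Figure D1:**
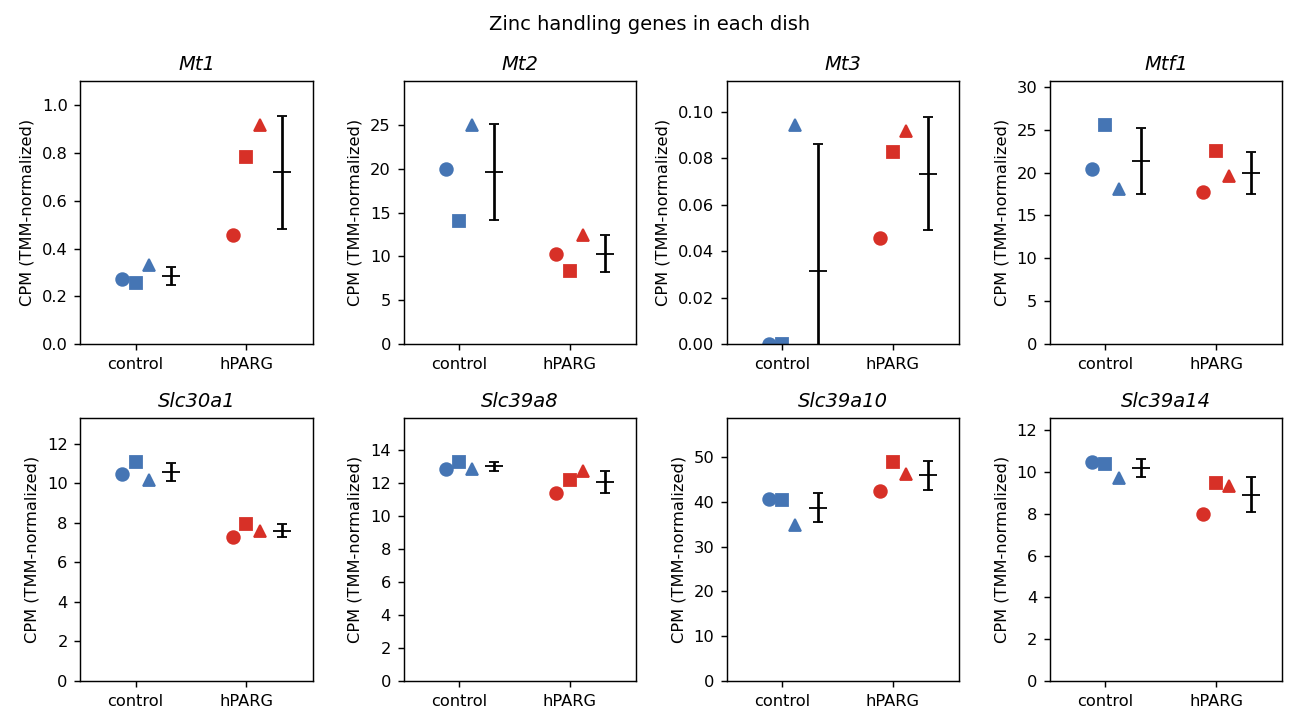
TMM-normalized CPM (y axis, from 0, a scale of its own for each gene) of the 8 genes in control (blue) and hPARG (red) dishes, with circles for dish 1, squares for dish 2 and triangles for dish 3, and bars for the mean ± SD (n = 3). Mt2 and Slc30a1 lie lower and Mt1 and Slc39a10 higher in every hPARG dish, Mtf1 overlaps, and the Mt3 points stand for 0 to 2 counts.

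Mt2 (ENSMUSG00000031762, chromosome 8, 94172664 to 94173568, plus strand) was measured at 19.9, 14.1 and 25.0 CPM in the control dishes, in the order 1 to 3, from 510, 327 and 530 counts. Under doxycycline it stood at 10.3, 8.28 and 12.4 CPM, from 224, 201 and 271 counts. Every hPARG dish was below every control dish, and dish 2 was the lowest of both groups. The hPARG mean of 10.3 ± 2.07 CPM was 52.6% of the control mean of 19.7 ± 5.46 (SD, n = 3). The log2 fold change was -0.93 ± 0.23 (SE), with an FDR of 0.683 in edgeR's quasi-likelihood test (Benjamini-Hochberg over 11509 tested genes), and Mt2 was not called at an FDR under 0.05 and over 2-fold. In RNA of whole dishes, fewer cells with a transcript and less of it per cell cannot be told apart.

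The exons of Mt2 add up to only 588 bases, and genes with short exons stood lower in dish 2 of both groups. Relative to dishes 1 and 3, the log2 CPM of Mt2 in dish 2 was -0.66 in control and -0.45 in hPARG. The 80 tested genes under 700 bases had medians of -0.53 and -0.53. Whether the length pattern accounts for the dish 2 values of Mt2 was not tested. With a smooth curve of log exon length removed from each dish, Mt2 stood at 20.96, 18.6 and 20.7 CPM in control and at 8.96, 10.0 and 10.2 CPM in hPARG dishes. On this scale the control dishes lay closer together, and the log2 fold change was -1.05 ± 0.11 (SE) with an FDR of 0.00460, which passed both thresholds. Of the exon bases of Mt2, 73.5% are shared with the antisense gene Gm45774, which had 0 counts in every dish. The methods do not say whether counting used strand.

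**Figure D2:**
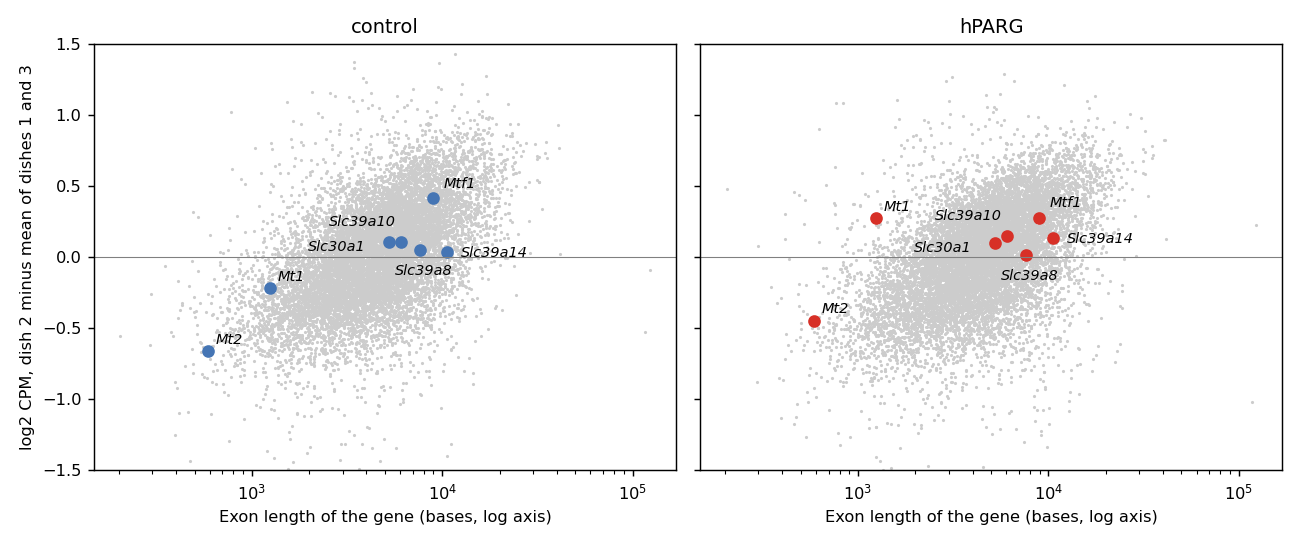
Difference in log2 CPM between dish 2 and the mean of dishes 1 and 3 (y axis; a few genes beyond its ends are not shown) against exon length in bases (log x axis), for all tested genes (grey) and the 7 tested genes of the group (coloured), in control (left) and hPARG (right) dishes. Short genes lie below 0 and long genes above it in both groups, with Mt2 at -0.66 and -0.45, and Mt1 at -0.22 in control and 0.27 in hPARG.

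Mt1 (ENSMUSG00000031765, chromosome 8, 94179082 to 94180327, plus strand), which encodes the closest relative of the Mt2 protein in this group, went the other way at a far lower level. Without doxycycline the dishes held 7, 6 and 7 counts, or 0.273, 0.258 and 0.330 CPM. The hPARG dishes held 10, 19 and 20 counts, or 0.458, 0.783 and 0.917 CPM. All hPARG dishes lay above all control dishes, with dish 1 nearest to them. The summed counts were 20 (exact Poisson 95% interval 12.2 to 30.9) and 49 (36.3 to 64.8), intervals that cover counting error only. The mean was 0.720 ± 0.236 CPM in hPARG against 0.287 ± 0.0379 in control dishes (SD, n = 3), and the log2 fold change was 1.32 ± 0.41 (SE) with an FDR of 0.946 in edgeR's quasi-likelihood test. Mt1 passed the filter on low counts only through the hPARG dishes in which it was higher. Its log2 fold change lay at the 99.9th percentile of all tested genes, a place that carries no weight, since being higher let Mt1 be tested. That of Mt2 lay at the 0.391st percentile.

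The number of Mt2 counts per Mt1 count sets both genes against each other within a dish. The ratio was 72.9, 54.5 and 75.7 without hPARG and 22.4, 10.6 and 13.6 with it, dish by dish. The groups were far apart, with a mean of 67.7 ± 11.5 in control against 15.5 ± 6.15 in hPARG (SD, n = 3), a 4.36-fold difference. No test is given for the ratio, since it is made of the values of both genes that were known when they were chosen. Each ratio has only 6 to 20 Mt1 counts below the line. The summed CPM of Mt1 and Mt2 followed Mt2, at 20.2, 14.3 and 25.3 in control and 10.7, 9.07 and 13.3 in hPARG dishes.

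Mt3 (ENSMUSG00000031760, chromosome 8, 94152607 to 94154146) had 0, 0 and 2 counts in control and 1, 2 and 2 in hPARG dishes. All of these are below the floor of 3 counts per dish, so Mt3 was not tested and a difference was not detectable at this depth. Mt4, the metallothionein of stratified squamous epithelium and the remaining gene of the cluster, had at most 1 count in any dish. The genes that flank the cluster on chromosome 8 stood near 0. Bbs2, a gene of the ciliary BBSome, had a log2 fold change of -0.09 ± 0.11 and Nup93, a nuclear pore component, -0.04 ± 0.09 (SE). Both overlapped between the groups, and Gm39228, next to Mt1, had 0 counts throughout.

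**Figure D3:**
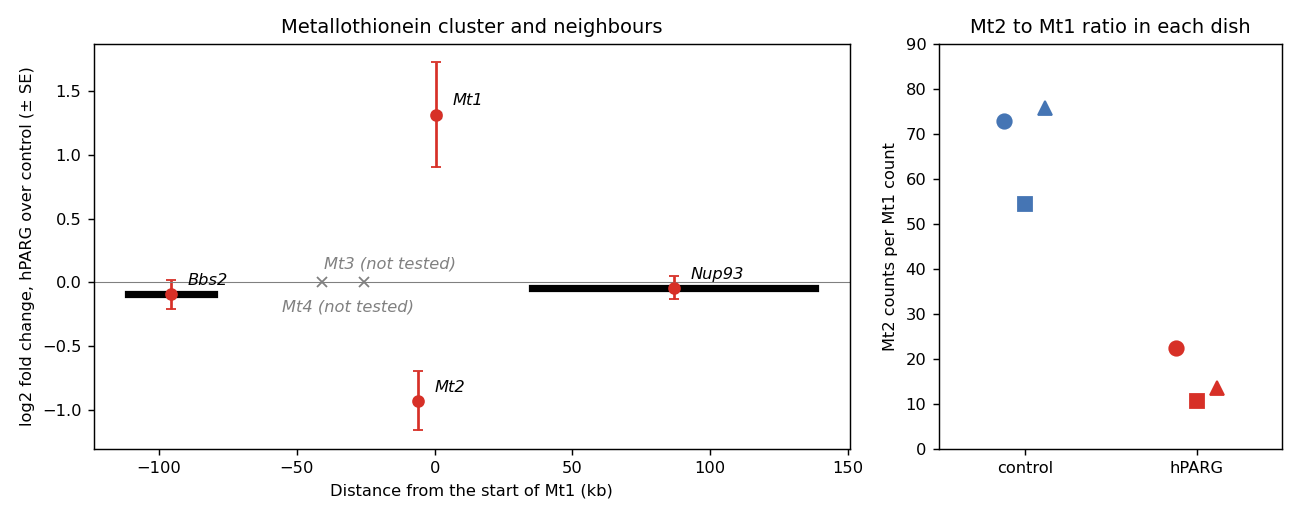
Left, log2 fold change of hPARG over control (y axis, points with SE bars) against distance from the start of Mt1 in kb (x axis) for the tested genes of the cluster region, with black bars for gene length and crosses, placed at 0, for Mt3 and Mt4, which were not tested. Right, Mt2 counts per Mt1 count (y axis) in each control and hPARG dish, between 54.5 and 75.7 in control and between 10.6 and 22.4 in hPARG dishes.

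Mtf1 (ENSMUSG00000028890, chromosome 4, 124802104 to 124849800, plus strand), the sensor itself, stood at 20.4, 25.6 and 18.1 CPM in control and 17.7, 22.5 and 19.6 CPM in hPARG dishes. The groups overlapped, and dish 2 was the highest of both for this gene with 8907 bases of exon. The log2 fold change was -0.10 ± 0.16 (SE) with an FDR of 0.999 in edgeR's quasi-likelihood test, and it became 0.054 when control dish 2 was left out. With the exon length curve removed the Mtf1 values were 20.8, 23.3 and 20.3 CPM in control and 18.7, 20.2 and 19.8 in hPARG dishes. The exons of Mtf1 share 8.09% of their bases with 1110065P20Rik on the other strand. That gene had 932, 707 and 962 counts in control and 951, 575 and 816 in hPARG dishes. Since strand use in counting is not stated, its part in the Mtf1 counts was not tested.

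Slc30a1 (ENSMUSG00000037434, chromosome 1, 191906767 to 191913247, plus strand), the gene of the exporter ZnT1, had little spread within either group. It was measured at 10.5, 11.1 and 10.2 CPM in control dishes, from 268, 258 and 216 counts. In hPARG dishes it stood at 7.29, 7.95 and 7.57 CPM, from 159, 193 and 165 counts. The groups did not overlap, and the gap between them was wider than the range within either one. The hPARG mean of 7.60 ± 0.334 was 71.9% of the control mean of 10.6 ± 0.470 (SD, n = 3), and the log2 fold change was -0.48 ± 0.11 (SE) with an FDR of 0.574 in edgeR's quasi-likelihood test. At 5244 bases of exon it lies near the middle of the length range, and removing the length curve changed little, with 10.4 to 10.9 CPM in control and 7.40 to 7.71 CPM in hPARG dishes. An antisense gene, 1700034H15Rik, shares 8.92% of its exon bases and had 0 counts in every dish.

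Slc39a10 (ENSMUSG00000025986, chromosome 1, 46807544 to 46892852, minus strand), the importer gene that MTF1 is known to hold down, was measured at 40.8, 40.6 and 35.0 CPM in control and 42.4, 49.0 and 46.3 CPM in hPARG dishes. All hPARG dishes were higher, although hPARG dish 1 stood close to control dishes 1 and 2. Scaled by library size alone, hPARG dish 1 was below control dish 2. The means were 38.8 ± 3.29 and 45.9 ± 3.31 CPM (SD, n = 3), with a log2 fold change of 0.24 ± 0.11 (SE) and an FDR of 0.999 in edgeR's quasi-likelihood test. A stretch of 348 bases is 94.3% identical to the transcript of Gm6801, which could take or lend reads. No counts are given for Gm6801, so this could not be checked.

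The other importers were closer to their controls. Slc39a8 (ENSMUSG00000053897, chromosome 3, 135825279 to 135888572, plus strand) stood at 12.8, 13.3 and 12.9 CPM in control and 11.4, 12.2 and 12.7 CPM in hPARG dishes, with a log2 fold change of -0.11 ± 0.10 (SE). Slc39a14 (ENSMUSG00000022094, chromosome 14, 70303469 to 70351425, minus strand) stood at 10.5, 10.4 and 9.71 CPM in control and 7.98, 9.48 and 9.31 CPM in hPARG dishes, with a log2 fold change of -0.19 ± 0.12 (SE). Both were lower in all hPARG dishes by a narrow margin, which rested on hPARG dish 3 at 12.7 against 12.8 CPM for Slc39a8 and on hPARG dish 2 at 9.48 against 9.71 for Slc39a14. Their FDR was 0.999 in edgeR's quasi-likelihood test.

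Counted over the group, 7 genes were tested and 0 were called at an FDR under 0.05 and over 2-fold by edgeR's quasi-likelihood test, against 10 of all 11509 tested genes (0.0869%). DESeq2 also called 0, against 22 (0.191%) of all tested genes, and 3 (Mt1, Mt2 and Slc30a1) had an unadjusted p under 0.05, against 3.95%. Dishes did not overlap for 6 genes, against 9.62% of all tested genes. Of these, 4 were lower (Mt2, Slc30a1, Slc39a8 and Slc39a14), against 6.00%, and 2 were higher (Mt1 and Slc39a10), against 3.61%. The count of 6 became 4 when CPM was scaled by library size alone, where Slc39a10 and Slc39a14 overlapped. It became 5 with the exon length curve removed, where Slc39a8 and Slc39a14 overlapped and Mtf1 did not. The share of all tested genes was counted with TMM factors only. Whether the counts of 4 and 5 stand further from their background than that of 6 was therefore not tested. The median log2 fold change of the tested genes of the group was -0.11, against 0.00 over all tested genes. Where a background is given, the counts stand beside it as a description only, since the same contrast was known when the genes were chosen. Mt1, moreover, was tested only because it was higher in hPARG dishes.

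Outside the group, of 20 further Slc30 and Slc39 genes 12 were tested, 0 were called in either direction, and their log2 fold changes ran from -0.18 to 0.12 with a median of -0.04. None had an unadjusted p under 0.05 in edgeR's quasi-likelihood test, against 3.95% of all tested genes, and DESeq2 called 0. Of those with the highest CPM, Slc30a4, a transporter that loads zinc into vesicles, had a log2 fold change of -0.16 ± 0.09 (SE), and Slc39a6, an importer close to Slc39a10 in sequence, -0.18 ± 0.09. Slc39a7, which releases zinc from the endoplasmic reticulum, stood at 0.03 ± 0.10 and Slc39a1, a plasma membrane importer, at -0.05 ± 0.09. Both Slc30a4 and Slc39a6 were lower in all hPARG dishes, 2 of the 12 against 6.00% of all tested genes. Slc30a9, named after its values were seen, was higher in all of them, 1 of the 12 against 3.61%. Slc30a1 therefore had the lowest and Slc39a10 the highest log2 fold change of all 16 tested zinc transporters. This is a description, as these genes were chosen with the differences known.

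**Figure D4:**
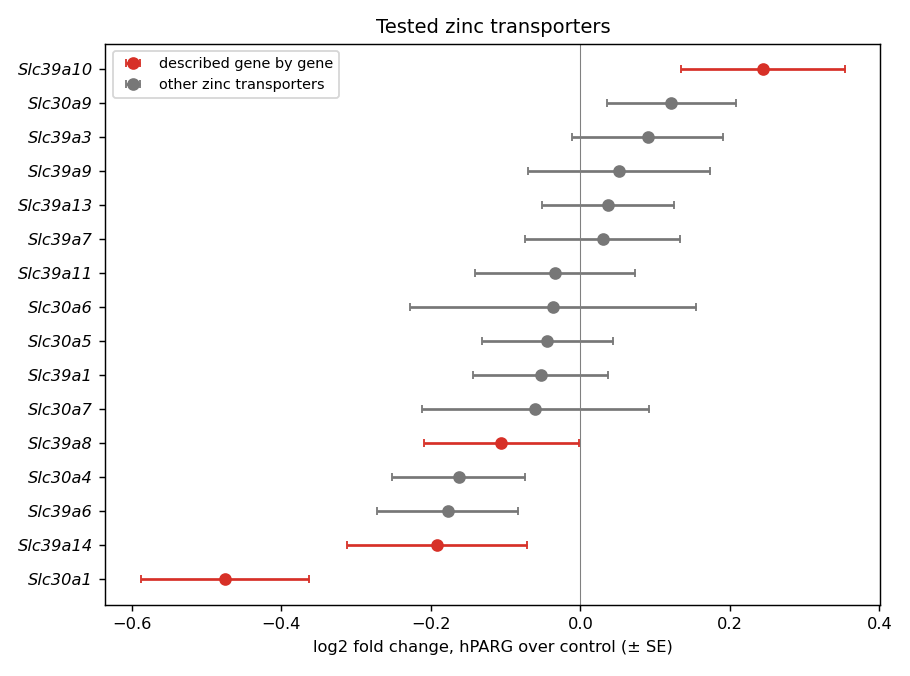
Log2 fold change of hPARG over control (x axis, points with SE bars) for the 16 tested zinc transporters (y axis, sorted), with those described gene by gene in red and the 12 others in grey. Slc30a1 lies at -0.48, Slc39a10 at 0.24 and the grey points between -0.18 and 0.12.

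Genes of related metal and stress responses were counted in the same fit, and 0 were called in any of these lists by edgeR or DESeq2. Their counts without overlap stand against 6.00% of all tested genes lower and 3.61% higher, and those with an unadjusted p under 0.05 against 3.95%. Of 11 copper handling genes 10 were tested, with 0 higher and 2 lower without overlap, a median log2 fold change of -0.0019 and 1 unadjusted p under 0.05 (the copper chaperone Sco2). Sod1, the copper and zinc superoxide dismutase and the most abundant of the list, stood at 0.03 ± 0.15 (SE). Of 14 iron handling genes 13 were tested, with 0 higher and 3 lower, a median of -0.08 and 2 such p (the transferrin receptor Tfrc and the iron importer Slc11a2). The ferritin chains Fth1 and Ftl1 stood at -0.17 ± 0.14 and -0.06 ± 0.17 (SE). All 8 NRF2-type stress genes were tested, with 1 lower, a median of -0.10 and 1 such p, for Hmox1, the heme oxygenase, which metals also induce. Its level was 80.5 ± 1.26 CPM in control and 60.4 ± 3.01 CPM in hPARG dishes (SD, n = 3), with a log2 fold change of -0.41 ± 0.09 (SE) and an FDR of 0.468 in edgeR's quasi-likelihood test. Glucocorticoids also drive metallothionein genes, and of 7 glucocorticoid-responsive genes 6 were tested, with 1 lower (Tsc22d3, also the only such p), a median of 0.02 and Fkbp5 at 0.08 ± 0.17 (SE). Of 6 heat shock genes 5 were tested, with none apart and a median of 0.13, and Hsp90aa1, a chaperone, stood at 0.03 ± 0.12 (SE). Sco2, Tfrc, Slc11a2, Hmox1 and Tsc22d3 are named here after their values were seen.

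Over the 6 dishes the log2 CPM of Mt2 was most like that of Mus81 (Pearson r = 0.991), Rpusd4 (0.990), Tmem69 (0.983), Btbd6 (0.983) and Syf2 (0.982) among 10840 genes with a mean of at least 1 CPM. For Mt1 the closest were Amer1 (r = 0.993), Vps26b (0.982), Gabbr1 (0.976), Hjurp (0.974) and Klhl36 (0.972) among 10841 genes. Within the group, r with Mt2 was 0.73 for Slc30a1, 0.60 for Slc39a8 and 0.52 for Slc39a14. It was -0.26 for Mtf1, -0.66 for Mt1 and -0.88 for Slc39a10. These are descriptions over 6 points that share their groups and the length pattern of dish 2, from a search of all these genes.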

How the data were processed

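RNA of 3 control and 3 hPARG dishes was sequenced from poly(A) libraries as 150 bp paired-end reads. The authors mapped them to GRCm38 with Ensembl release 96 in CLC Genomics Workbench and deposited whole counts per gene, not normalized. The deposited RPKM values, counts divided by gene length and a library factor, were used for levels between genes. The 12 deposited TPM and CPM columns and the authors' own comparison (fold changes, p-values, FDR) were not used. Whether counting used strand is not stated.

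Genes passing filterByExpr (minimum count 10) were scaled with TMM factors and tested by edgeR's quasi-likelihood test (version 4.0.16, on limma 3.58.1 and R 4.3.3), group being the only term. A call needed an FDR under 0.05 (Benjamini-Hochberg) and over 2-fold. Standard errors come from the log2 fold change and its F statistic. The fit was tested on simulated data with 200 well-counted genes changed 4-fold and no length pattern in dish 2. This does not cover smaller changes, counts as low as those of Mt1, or that pattern. Alternatives were other size factors, library size only, DESeq2 1.42.0, a likelihood ratio test, no filter, a replicate block, an offset for exon length (spline with 4 degrees of freedom), both together and leaving out each dish. The permutation test planned for the Mt2 to Mt1 ratio is not given, since these values were known when the genes were chosen. Poisson intervals used scipy 1.17.1. Counts of 3 or fewer per dish were treated as the floor. Coordinates, exon lengths and neighbours within 50 kb come from GENCODE M21 (GRCm38), and promoters from RefSeq.

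The members and lists were chosen with earlier results of these data known. Named are all 8 members, up to 4 genes a list with the highest CPM, the cluster's neighbours, and the 5 genes most like Mt1 and Mt2. A few list genes named outside this rule, after their values were seen, are marked as such.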

Additional observations from a re-analysis of the deposited data

How the results depend on the processing

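In all alternatives the log2 fold changes of Mt1, Mt2, Slc30a1, Slc39a8, Slc39a10 and Slc39a14 kept their direction. Their ranges were 1.11 to 1.55 for Mt1, -1.12 to -0.72 for Mt2 and -0.51 to -0.44 for Slc30a1. Mtf1 ran from -0.20 without control dish 3 to 0.054 without control dish 2. The count of called members was 0 except with the exon length offset (1, Mt2 at -1.05) and with the replicate block and this offset together (1, Mt2 at -1.05). In the likelihood ratio test Mt2 had an FDR of 0.0301 but was under 2-fold, at -0.93. In DESeq2 its FDR was 0.0646, at -0.92. With fewer samples FDR changes too, and without 1 dish that of Mt2 ran from 0.158 to 1.00. The count of all called genes, 10, became 22 with DESeq2, 30 with the likelihood ratio test, 16 without a filter on low counts, 23 with the replicate block, 19 with the exon length offset, 25 with both, and 3 to 13 with 1 dish left out, where it was 3 without hPARG dish 1 and 5 without hPARG dish 3. The cause was not tested.

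The replicate numbers of both groups were not taken to pair the dishes. Deviations from the group means correlated at r = 0.096, 0.610 and 0.168 for numbers 1 to 3, and control dish 1 correlated best with hPARG dish 3 (0.207). With the replicate block, 2 members had an FDR under 0.05 in edgeR's quasi-likelihood test, Mt2 (0.000216) and Slc30a1 (0.0394), as had 330 of all tested genes (2.87%). Ranked by CPM per kb of exon, Mtf1, Slc30a1 and Slc39a8 changed places by level, and Slc30a1 stayed above Slc39a14 in both groups. Depth limits Mt1, with 6 to 20 counts per dish, and Mt3, which the filter removed and which, tested without it, had an FDR of 0.998 in edgeR's quasi-likelihood test.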
